A study of Homo sapiens with 24 samples.

Results

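The data described here concern 10 transcription factor genes that set blood cell identity in acute myeloid leukaemia: HOXA9, HOXA10, HOXA7, HOXB3, MEIS1, PBX3, MYB, RUNX1, SPI1 and CEBPA. They were chosen by symbol, with earlier results of these data known, and all 10 were present among the 13033 genes measured. Poly(A) RNA was sequenced from 2 human leukaemia cell lines, Molm-14 (labelled with the genotype FLT3-ITD, an activating internal duplication of a growth factor receptor) and OCI-AML3 (written OCIAML-3 in the labels, with NRAS Q61L, an activating RAS change). Each line received DMSO, the solvent, or RMC-7977 at 25 nM for 2 or 24 h, with 5 M cells for each condition. RMC-7977 is an inhibitor of RAS in its switched-on state. The 6 groups had 4 libraries each, except OCI-AML3 at 24 h, where the third library was not analysed here and n = 3. Each genotype was represented by 1 cell line, so genotype and line cannot be told apart. As background, Molm-14 is also known to carry a KMT2A::MLLT3 fusion and OCI-AML3 a mutant NPM1, both of which are associated with high HOXA expression. The labels give no time for the DMSO libraries, so the same DMSO group served both times and the comparisons at 2 and 24 h share it. The labels do not say whether replicate libraries came from separate cultures, and the spread behind every p-value may therefore be technical.

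HOX proteins are homeodomain factors that bind DNA together with TALE homeodomain partners, the MEIS and PBX proteins. In blood stem and progenitor cells HOXA9, MEIS1 and PBX3 sustain self-renewal, and their levels normally fall as cells mature. MYB also maintains the progenitor state, whereas RUNX1, PU.1 (the product of SPI1) and C/EBP alpha (the product of CEBPA) drive differentiation toward granulocytes and monocytes.

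Sequence upstream of 4 members is shown because these members responded differently: MYB had the largest early loss, PBX3 the largest late gain in OCI-AML3, MEIS1 was higher at 24 h in both lines, and HOXA9 differed in direction between the lines. Each run is the 250 bases before the RefSeq transcription start (GRCh38.p14), 5′ to 3′ on the gene's own strand. The windows are chr6:135181058-135181307 for MYB (plus strand), chr9:125747933-125748182 for PBX3 (plus strand), chr2:66434875-66435124 for MEIS1 (plus strand) and chr7:27165538-27165787 for HOXA9 (minus strand). Capitals mark matches to the motifs named after the sequences.
MYB: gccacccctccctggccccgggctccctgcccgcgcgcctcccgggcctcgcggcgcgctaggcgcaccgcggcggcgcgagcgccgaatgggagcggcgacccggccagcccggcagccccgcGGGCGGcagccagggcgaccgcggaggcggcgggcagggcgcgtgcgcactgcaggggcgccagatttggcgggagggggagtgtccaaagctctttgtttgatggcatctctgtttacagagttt
PBX3: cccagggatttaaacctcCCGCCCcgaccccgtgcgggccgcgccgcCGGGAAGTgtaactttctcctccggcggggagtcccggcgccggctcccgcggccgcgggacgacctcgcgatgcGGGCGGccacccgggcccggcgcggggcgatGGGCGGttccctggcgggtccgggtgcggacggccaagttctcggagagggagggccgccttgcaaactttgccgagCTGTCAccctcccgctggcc
MEIS1: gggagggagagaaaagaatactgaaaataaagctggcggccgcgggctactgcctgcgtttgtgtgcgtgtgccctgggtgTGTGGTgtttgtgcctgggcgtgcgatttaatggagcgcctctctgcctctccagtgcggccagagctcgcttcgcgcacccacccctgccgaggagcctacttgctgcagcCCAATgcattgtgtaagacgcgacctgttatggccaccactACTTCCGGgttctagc
HOXA9: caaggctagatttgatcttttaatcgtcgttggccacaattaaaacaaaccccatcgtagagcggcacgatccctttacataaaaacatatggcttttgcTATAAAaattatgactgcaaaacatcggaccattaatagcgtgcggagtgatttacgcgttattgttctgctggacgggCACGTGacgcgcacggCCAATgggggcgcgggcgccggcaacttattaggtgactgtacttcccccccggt

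Both strands were searched for 12 motifs. The ETS family site was read as CNGGAAGT, the AP-1 site as TGANTCA and the CRE as TGACGTCA. The E-box was CACGTG, the Sp1 type box (called GC box below) was GGGCGG and the promoter box bound by NF-Y was CCAAT. Sites for the members' own families were TGTGGT for RUNX, TTGCNNAA for C/EBP, TGATNNAT for HOX with PBX, TGACAG for MEIS and AACGG for MYB, and the TATA box was TATAAA. Matches could overlap, and the short MYB motif was counted but given no capitals. Entries were found for 8 of the 10 members. The MYB window had a GC box 126 bases before the start and no other match, and GC boxes were present in 42.64% of 35116 RefSeq windows of the same length. An ETS site, present in 7.77% of windows, lay 16 bases before the start of MEIS1 and 203 bases before that of PBX3. PBX3 also held a MEIS site 20 bases before its start (13.03% of windows) and GC boxes at 97, 128 and 232 bases. MEIS1 held a RUNX site at 169 bases (10.98%) and a CCAAT box at 57 bases. HOXA9 held an E-box at 71 bases (6.34%), a CCAAT box at 55 bases (32.01%) and a TATA box at 150 bases (10.72%). No AP-1, CRE, C/EBP, HOX-PBX or MYB match was found in the windows of these members. These are matches of letters only.

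Levels below are CPM (read counts scaled to a common library size, from the deposited log2 CPM), listed in order of replicate. Fold changes are log2 values ± SE from limma, with Benjamini-Hochberg adjusted p across all 13033 genes. A gene is said to have risen or fallen only where the adjusted p was below 0.05 and the change at least 2-fold. Smaller changes with an adjusted p below 0.05 are called higher or lower. The libraries held 15.3 to 22.4 M reads by effective size. All 10 myeloid markers were measured, with a summed level of 1247 to 1312 CPM in Molm-14 and 1556 to 1650 CPM in OCI-AML3 in DMSO. Of markers of other lineages, 1 of 6 T cell, 2 of 6 B cell, 1 of 9 erythroid and megakaryocyte and 2 of 9 epithelial and stromal genes were measured.

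In DMSO the lines differed in the levels of their HOX genes and TALE partners. HOXA7 was measured well only in Molm-14 and HOXB3 only in OCI-AML3, while HOXA9 and HOXA10 were high in both. MEIS1, PBX3 and RUNX1 were higher in Molm-14 by at least 2-fold, and SPI1 was higher in OCI-AML3. In all, 2 members were called higher and 4 lower in OCI-AML3, beside 30.2% of all genes called in either direction (17.9% higher and 12.2% lower). At an adjusted p below 0.05 alone all 10 differed, beside 82.4% of all genes, and the ranges of all 10 were apart, as they were for 76.1% of all genes. The plot of levels by library shows all 6 groups.

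**Figure D1:**
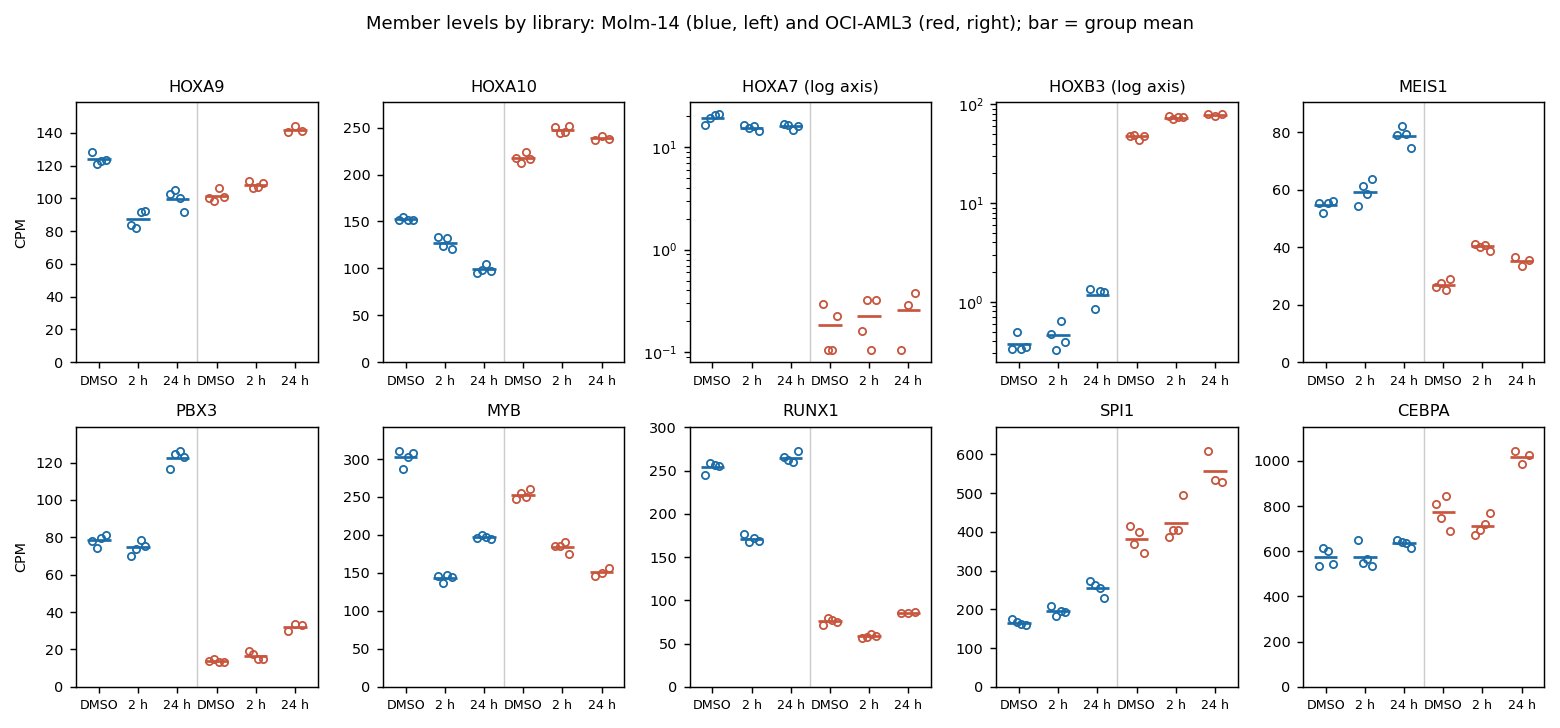
CPM of each member in every library (circles) with the group mean (bar), for Molm-14 (blue) and OCI-AML3 (red) in DMSO and after 2 and 24 h of RMC-7977; HOXA7 and HOXB3 have log axes. HOXA7 lies at 14.2 to 20.9 CPM in Molm-14 and at most 0.381 CPM in OCI-AML3, and HOXB3 shows the opposite order.

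HOXA9 (chr7:27162435-27175180, minus strand), the HOX factor most tied to myeloid leukaemia, was at 128, 121, 123 and 123 CPM in Molm-14 in DMSO and at 100.4, 98.1, 106 and 101 CPM in OCI-AML3. The OCI-AML3 libraries were all lower, by a modest amount (log2 difference -0.29 ± 0.04, adjusted p = 7.86e-07). HOXA10 (chr7:27170591-27180261, minus strand), its neighbour in the cluster, was at 152, 154, 151 and 152 CPM in Molm-14 and at 218, 212, 224 and 217 CPM in OCI-AML3 (0.52 ± 0.04, adjusted p = 7.67e-14). HOXA10 was thus the higher in OCI-AML3 and HOXA9 the higher in Molm-14, with no overlap of libraries for either. In GENCODE 29 both genes share exon bases with a read-through gene, AC004080.3, and with the antisense gene HOXA10-AS. The strand setting of the counting is not given in the sources used here, so reads of these overlapping genes may have been split between them.

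HOXA7 (chr7:27153716-27157936, minus strand), which lies next to HOXA9 on its 3′ side, was at 16.4, 19.1, 20.5 and 20.9 CPM in Molm-14 in DMSO and at 0.297, 0.105, 0.105 and 0.223 CPM in OCI-AML3, where 0.105 CPM is the lowest value of the table. By reads recovered from the spacing of low values, the 4 OCI-AML3 libraries held 6 HOXA7 reads and the 4 Molm-14 libraries 1343, a level 253.5-fold lower in OCI-AML3 (exact 95% interval 116 to 692, counting error only). HOXB3 (chr17:48548870-48604912, minus strand) was at 0.334, 0.495, 0.330 and 0.353 CPM in Molm-14 and at 48.1, 49.2, 43.8 and 47.9 CPM in OCI-AML3. Here the DMSO libraries held 19 reads in Molm-14 against 3780 in OCI-AML3, a ratio of 176 (112 to 292). HOXA7 overlaps the exons of the antisense HOXA-AS3, and HOXB3 shares 159 exon bases with HOXB4 and 433 with HOXB6.

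The other HOX genes also differed between the lines. Of 34 listed, 19 were measured, and 7 were called higher and 10 lower in OCI-AML3 in DMSO, beside 30.2% of all genes called. In the HOXB cluster, members included, 7 of 9 measured genes were called higher in OCI-AML3 at the 2-fold limit and 1 lower, and HOXB8 was higher by less than 2-fold (log2 difference 0.91, adjusted p = 1.23e-07). HOXB2, with 0 reads in Molm-14 and 2047 in OCI-AML3, was at least 603-fold higher (against a floor of 3 reads over the group). HOXB9 was the gene that went the other way, at 41.0 CPM in Molm-14 and 2.74 CPM in OCI-AML3. All 5 measured HOXC genes were lower in OCI-AML3, led by HOXC4 with 650 reads in Molm-14 and 1 in OCI-AML3 (ratio 736, interval 132 to 29120). In the HOXA cluster the 5 genes from HOXA3 to HOXA7 were all lower in OCI-AML3, whereas HOXA9, HOXA10 and HOXA11 differed by less than 2-fold and HOXA13 was higher (63.0 against 129.8 CPM).

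**Figure D2:**
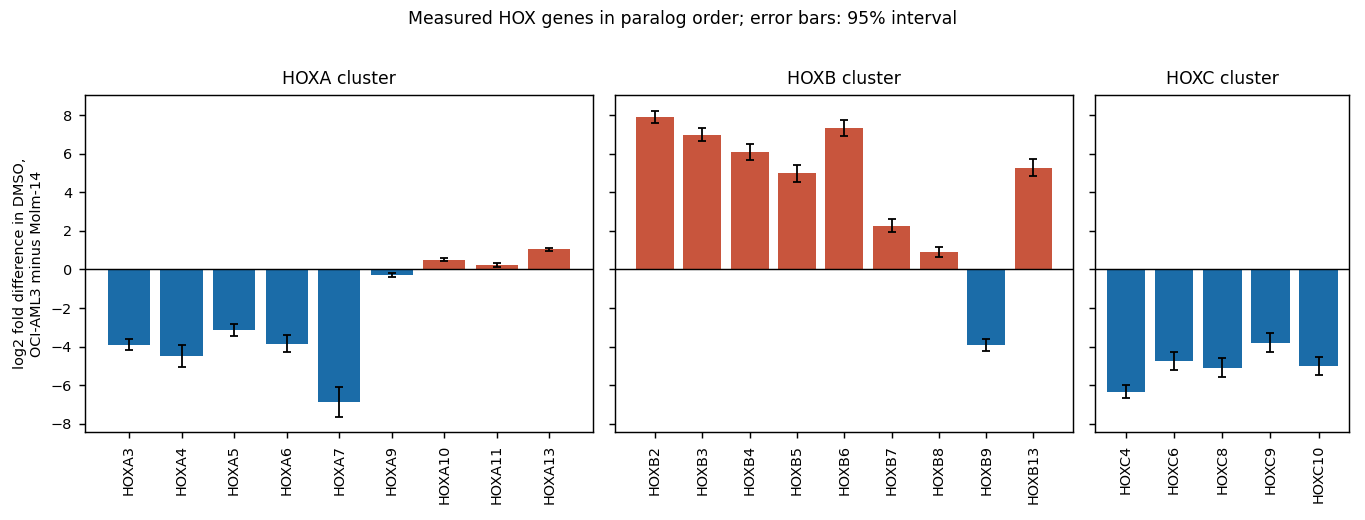
Log2 difference in DMSO (OCI-AML3 minus Molm-14, limma) for 23 measured HOX genes in paralog order within each cluster, with 95% intervals; red bars are higher in OCI-AML3 and blue bars higher in Molm-14. Bars of genes near the lowest value of the table, such as HOXB2 in Molm-14, depend on the prior count and are not bounds; the change of sign along HOXA falls between HOXA9 (-0.29) and HOXA10 (0.52).

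MEIS1 (chr2:66433452-66573869, plus strand), the TALE partner that stabilises HOXA9 on DNA, was at 55.5, 52.0, 55.3 and 55.9 CPM in Molm-14 and at 26.3, 27.6, 25.0 and 29 CPM in OCI-AML3 in DMSO. The difference sat at the 2-fold limit (-1.02 ± 0.05, adjusted p = 2.63e-17), and without the third OCI-AML3 DMSO library it was -0.99. PBX3 (chr9:125747345-125967377, plus strand), the third protein of the HOXA9 and MEIS1 complex, was at 78.1, 74.4, 79.6 and 81.0 CPM against 13.5, 14.7, 13.4 and 13.4 CPM (-2.51 ± 0.06, adjusted p = 5.22e-25). Both partners were lower in every OCI-AML3 library. Their relatives were divided too: MEIS2 was at 66.2 CPM in Molm-14 and 2.08 CPM in OCI-AML3, while PBX4, with 1 read in Molm-14 and 251 in OCI-AML3, had the opposite order (ratio 222, interval 39.4 to 8790).

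RUNX1 (chr21:34787801-36004667, minus strand), the DNA-binding subunit of core binding factor, was at 245, 259, 257 and 255 CPM in Molm-14 and at 71.2, 79.1, 77.4 and 75.0 CPM in OCI-AML3 (-1.75 ± 0.04, adjusted p = 9.22e-27). Its paralogs RUNX2 and RUNX3 had the opposite order, at 42.4 and 12.5 CPM in Molm-14 and 150.1 and 48.1 CPM in OCI-AML3. SPI1 (chr11:47354860-47378576, minus strand) was at 175, 167, 162 and 158 CPM against 416, 369, 399 and 345 CPM (1.20 ± 0.07, adjusted p = 3.48e-15). CEBPA (chr19:33299934-33302564, minus strand, 1 exon) was higher in OCI-AML3 by 0.43 ± 0.06 (adjusted p = 1.3e-07), and MYB (chr6:135181315-135219173, plus strand) lower by a log2 difference of -0.26 ± 0.04 (adjusted p = 2.89e-07). Each of these 4 genes had separate ranges in the 2 lines.

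After 2 h of RMC-7977 in Molm-14, MYB fell, HOXA9, HOXA10 and RUNX1 were lower by less than 2-fold, and SPI1 was slightly higher. MYB, the progenitor factor, went from 311, 287, 303 and 308 CPM in DMSO to 146, 137, 147 and 144 CPM. All 4 treated libraries were far below all 4 controls (log2 fold change -1.07 ± 0.04, adjusted p = 9.51e-21), and it was the only one of the 10 members called, beside 7.29% of all genes in either direction and 2.98% lower. At an adjusted p below 0.05 alone 5 members differed, beside 59.5% of all genes. RUNX1 went to 177, 167, 172 and 168 CPM (-0.57 ± 0.04, adjusted p = 7.52e-14) and HOXA9 to 83.6, 82.1, 91.8 and 92.1 CPM (-0.50 ± 0.04, adjusted p = 3.77e-11). Neither overlapped its controls. The 6 members whose ranges were apart compare with 53.6% of all genes, so that share was near the background. The median member change was -0.165, against 0.00 for all genes.

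In OCI-AML3 at 2 h 0 members were called by limma or by voom, beside 6.58% of all genes by limma, and 8 had an unadjusted p below 0.05. At an adjusted p below 0.05 alone 4 were higher and 2 lower, beside 62.2% of all genes, and 6 had ranges apart from DMSO, beside 54.4% of all genes. MYB was at 247, 255, 249.5 and 261 CPM in DMSO and at 186, 186, 191 and 175 CPM at 2 h (-0.46 ± 0.04, adjusted p = 7.36e-12). RUNX1 was also lower, at 56.8, 57.1, 61.2 and 58.1 CPM (-0.38 ± 0.04, adjusted p = 8.45e-10). MEIS1 was higher, at 41.3, 40.1, 40.9 and 38.8 CPM (0.58 ± 0.05, adjusted p = 9.1e-11), as was HOXB3, at 75.4, 70.6, 73.6 and 73.7 CPM (0.64 ± 0.16, adjusted p = 0.00106). Both stood above all 4 of their controls.

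**Figure D3:**
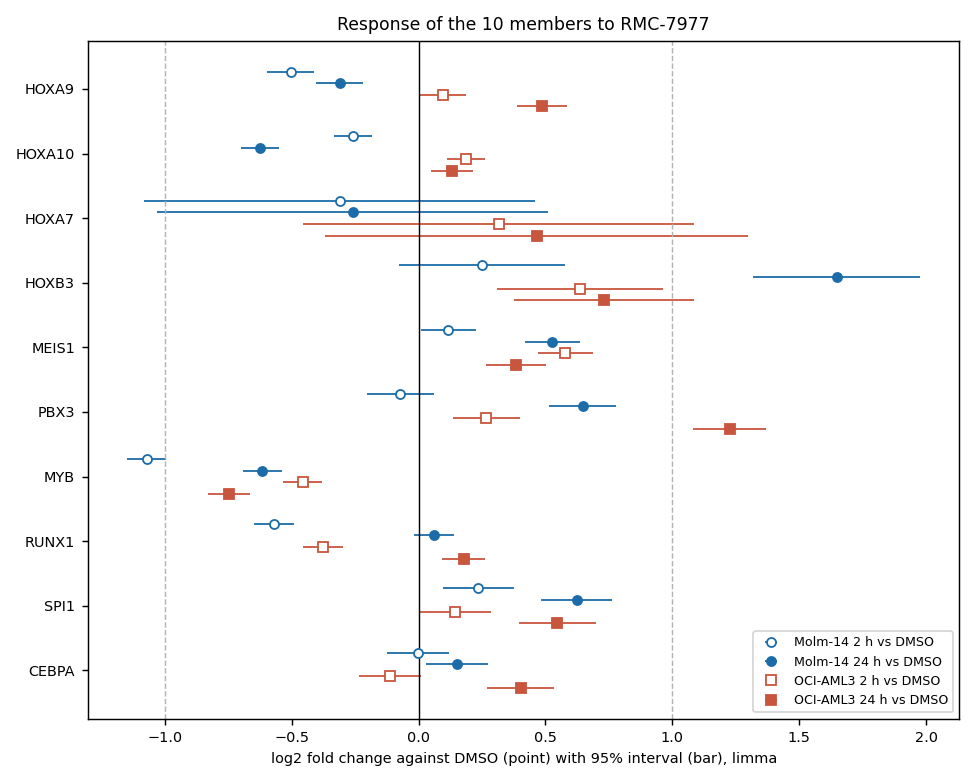
Log2 fold change against DMSO (limma) of each member at 2 h (open) and 24 h (filled) in Molm-14 (blue circles) and OCI-AML3 (red squares), with 95% intervals; dashed lines mark 2-fold. MYB at 2 h in Molm-14, HOXB3 at 24 h in Molm-14 and PBX3 at 24 h in OCI-AML3 lie beyond 2-fold with an adjusted p below 0.05, and the wide intervals of HOXA7 come with its few reads in OCI-AML3.

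At 24 h in Molm-14 the TALE partners and SPI1 were higher, HOXA9, HOXA10 and MYB were lower than in DMSO, and RUNX1 was near its DMSO level. HOXB3 was the member that rose (1 of 10, beside 17.9% of all genes called and 11.4% called higher), from the levels given above to 1.35, 0.853, 1.29 and 1.24 CPM (1.65 ± 0.16, adjusted p = 1.22e-10). It rests on 19 reads in DMSO and 81 at 24 h over 4 libraries each (ratio 4.05, exact 95% interval 2.44 to 7.08), and with a pseudocount of 1 CPM the change was 0.66 and no longer called. In a limma fit of only the groups compared, HOXB3 had a wider SE of 0.26 (adjusted p = 5.47e-06). Of all genes called in Molm-14 at 24 h, 63.4% were higher, or 73.4% with libraries rescaled to a common sum. PBX3 reached 117, 125, 126 and 123 CPM (0.65 ± 0.06, adjusted p = 2.08e-10) and MEIS1 79.1, 82.2, 79.5 and 74.5 CPM (0.53 ± 0.05, adjusted p = 2.4e-10). Both were above every DMSO library. At an adjusted p below 0.05 alone 8 members differed, beside 76.3% of all genes, and 8 had ranges apart, beside 71.3%. HOXA10 was at 95.1, 98.6, 104 and 97.0 CPM, lower than at 2 h as well as in DMSO (-0.62 ± 0.04, adjusted p = 1.2e-15).

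PBX3 rose in OCI-AML3 at 24 h, and 8 members in all were higher and 1 lower at an adjusted p below 0.05, beside 84.4% of all genes in either direction and 42.4% higher. The ranges of 9 were apart from DMSO, beside 82.3% of all genes. PBX3 reached 30.0, 33.7 and 32.8 CPM (1.23 ± 0.07, adjusted p = 2.52e-16), above every DMSO and 2 h library of this line but still below every Molm-14 library. It was the 1 member called, beside 35.4% of all genes in either direction and 18.4% higher. HOXA9 was at 140.5, 144 and 141 CPM (0.49 ± 0.05, adjusted p = 1.32e-10) and HOXB3 at 79.3, 76.4 and 79.2 CPM (0.73 ± 0.17, adjusted p = 0.000313). Both were above all OCI-AML3 DMSO libraries. MYB was the member that was lower, at 146, 149 and 157 CPM (-0.75 ± 0.04, adjusted p = 6.08e-17). The median member change of 0.43 stood beside 0.01 for all genes, and rescaling or centring the libraries moved the latter by 0.173 or 0.113.

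RNA of the lineage factor genes SPI1 and CEBPA was higher at 24 h in both lines. SPI1 was at 272, 263, 256 and 231 CPM in Molm-14 (0.62 ± 0.07, adjusted p = 4.49e-09) and at 609.7, 534 and 530.1 CPM in OCI-AML3 (0.55 ± 0.07, adjusted p = 1.48e-07). CEBPA was at 1046, 986 and 1026 CPM in OCI-AML3 at 24 h against 809, 749, 843 and 692 CPM in DMSO (0.40 ± 0.06, adjusted p = 1.42e-06). In Molm-14 the CEBPA ranges overlapped (0.15 ± 0.06, adjusted p = 0.0226). None of these changes reached 2-fold. Summed myeloid marker levels were also higher at 24 h, at 1812 to 2030 CPM in Molm-14 and 6684 to 6754 CPM in OCI-AML3, and their part in the result was not tested. At 2 h the sums already stood above DMSO, at 1471 to 1563 CPM in Molm-14 and 1966 to 2211 CPM in OCI-AML3. In OCI-AML3 neither SPI1 nor CEBPA passed at 2 h (limma adjusted p = 0.0702 and 0.0992). The 10 markers did not move as 1: 4 rose and 2 fell in Molm-14, and 6 rose and 2 fell in OCI-AML3. Of all genes, 17.9% in Molm-14 and 35.4% in OCI-AML3 were called at 24 h in either direction. Those that fell were MPO (-2.15) and FCGR1A (-1.15) in Molm-14, and CD14 (-3.56) and FCGR1A (-2.96) in OCI-AML3, as log2 fold changes. ITGA2B, the measured megakaryocyte marker, rose by 2.21 on the log2 scale in Molm-14, from 0.316 CPM, and from 1.78 to 11.4 CPM in OCI-AML3 (adjusted p = 4.81e-08 and 3.11e-09). In these bulk samples a changed share of cells of a type and a changed RNA level per cell cannot be told apart.

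Between 2 and 24 h RUNX1 became higher in both lines. It was at 265, 262, 259.6 and 273 CPM in Molm-14 at 24 h, a log2 difference of 0.63 ± 0.04 from 2 h (adjusted p = 4e-15), and at 84.8, 84.9 and 87.0 CPM in OCI-AML3 (0.55 ± 0.04, adjusted p = 3.12e-13). Against DMSO, RUNX1 at 24 h was higher in OCI-AML3, with ranges apart (0.18 ± 0.04, adjusted p = 0.000243). It did not pass in Molm-14 (0.06 ± 0.04, adjusted p = 0.152), although the ranges were apart there too. Rescaling the libraries to a common sum shifts all genes in that Molm-14 comparison by 0.099, which is more than this change. The difference between the lines in the RUNX1 response at 24 h did not pass (0.12 ± 0.06, adjusted p = 0.0669). No 24 h library overlapped a 2 h library of its line. MYB moved in opposite directions over that interval, higher at 24 h than at 2 h in Molm-14 (0.45 ± 0.04, adjusted p = 4.41e-12) and lower in OCI-AML3 (-0.29 ± 0.04, adjusted p = 1.43e-07). In Molm-14 HOXB3 was called between the times (1 of 10 members, beside 10.6% of all genes in either direction and 7.25% higher). That call rests on 27 reads at 2 h and 81 at 24 h, and was lost with a pseudocount of 1 CPM (1.40, then 0.58). In OCI-AML3 0 members were called by limma or voom (22.6% of all genes by limma, and 7 members at an unadjusted p below 0.05), where PBX3 came nearest at 0.96 ± 0.07 (adjusted p = 1.73e-13).

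HOXA9 and HOXA10 differed in direction between the lines, and the difference itself was tested. For HOXA9 the response in OCI-AML3 minus that in Molm-14 was 0.60 ± 0.06 at 2 h (adjusted p = 5.71e-09) and 0.80 ± 0.07 at 24 h (adjusted p = 8.43e-12). For HOXA10 it was 0.45 ± 0.05 (adjusted p = 4.72e-08) and 0.76 ± 0.05 (adjusted p = 4.13e-13). HOXA9 in OCI-AML3 at 2 h was itself not past the threshold (0.10 ± 0.04, adjusted p = 0.0588). By limma 0 members had a called difference at 2 h (5.64% of all genes) or 24 h (17.8%), with 6 and 7 at an unadjusted p below 0.05, and voom called 0 and 1. At an adjusted p below 0.05 alone, 6 members differed at each time, beside 38.7% and 65.4% of all genes.

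**Figure D4:**
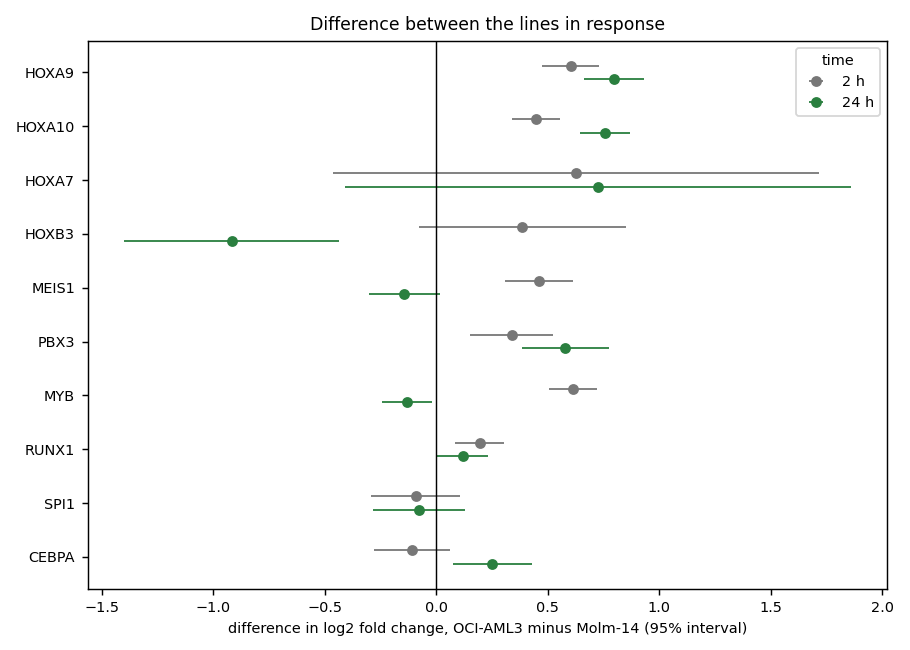
Difference between the lines in log2 fold change (OCI-AML3 minus Molm-14, limma) for each member at 2 h (grey) and 24 h (green), with 95% intervals. HOXA9 and HOXA10 lie to the right of 0 at both times, from 0.45 to 0.80, while the SPI1 intervals include 0 at both times.

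The MYB response also differed between the lines, at 2 h by 0.61 ± 0.05 (adjusted p = 8.53e-11, the deeper loss being in Molm-14) and at 24 h by -0.13 ± 0.05 (adjusted p = 0.0359, the deeper loss being in OCI-AML3). Rescaling or centring the libraries shifts the 24 h difference of all genes by 0.0737 or 0.0996, which is toward 0 for MYB. The small 24 h difference of MYB therefore depends on the scaling. The MEIS1 difference was 0.46 ± 0.07 at 2 h (adjusted p = 1.13e-05) and did not pass at 24 h (-0.14 ± 0.08, adjusted p = 0.105, interval -0.30 to 0.02). PBX3 gained more in OCI-AML3 at 24 h (0.58 ± 0.10, adjusted p = 4.72e-06). For SPI1 no difference was found at 2 h (adjusted p = 0.477, interval -0.29 to 0.11) or 24 h (adjusted p = 0.51, interval -0.28 to 0.13). The HOXB3 difference at 24 h of -0.92 ± 0.24 (adjusted p = 0.00122) became 0.06 with a pseudocount of 1 CPM.

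HOXA7 passed no test against DMSO in the fit of all groups (-0.31 ± 0.37 at 2 h and -0.26 ± 0.37 at 24 h in Molm-14, adjusted p = 0.499 and 0.537). That fit shares one spread with the OCI-AML3 libraries, which held 6 to 9 HOXA7 reads per group. With only the Molm-14 groups compared in the fit, HOXA7 had the same changes with an SE of 0.08 (adjusted p = 0.00288 and 0.00526). Its treated libraries, at 16.2, 15.4, 16 and 14.2 CPM at 2 h and 16.9, 16.4, 14.7 and 16 CPM at 24 h, overlapped DMSO at 24 h and lay just under it at 2 h. The spread of HOXB3 was shared in the same way, with few reads in Molm-14. With only the groups compared in the limma fit, the SE of HOXB3 in OCI-AML3 was 0.05 at 2 h and 0.06 at 24 h against DMSO (adjusted p = 1.42e-08 and 5.18e-09). In Molm-14 it was 0.26 for 24 h against DMSO and against 2 h (adjusted p = 5.47e-06 and 7.76e-05).

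Of the 19 other HOX genes measured, 1 rose in Molm-14 at 2 h and 4 at 24 h, while 3 rose at each time in OCI-AML3 and 1 fell there at 24 h. Of all genes 7.29% and 17.9% were called in Molm-14 and 6.58% and 35.4% in OCI-AML3. The share of these HOX genes at 24 h was thus near the background in Molm-14 and below it in OCI-AML3. Several of them could hardly be called, since they held almost no reads in a line. HOXB2 had 0 reads in Molm-14 in DMSO and at 24 h, and HOXC9 had 1 read in OCI-AML3 in each. HOXA3 in Molm-14 at 24 h went from 13.4 to 35.8 CPM (1.41 ± 0.15, adjusted p = 7.32e-10) and HOXC6 from 4.89 to 14.4 CPM (1.56 ± 0.23, adjusted p = 3.98e-07). HOXC4 rose in both lines, in OCI-AML3 from 1 read in DMSO to 85 reads at 24 h (ratio 125, interval 21.8 to 4989). HOXB9 fell in OCI-AML3 at 24 h, from 2.74 to 0.489 CPM (-2.52 ± 0.17, adjusted p = 9.45e-15). With the genes that held almost no reads included, the median change of the list at 24 h was 0.00 in Molm-14 and 0.12 in OCI-AML3. For all genes it was 0.00 and 0.01.

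Among 6 measured TALE relatives limma called 0 in Molm-14 (3 at 2 h and 3 at 24 h had an unadjusted p below 0.05), and 1 rose at each time in OCI-AML3. The shares of all genes called at 2 and 24 h were 7.29% and 17.9% in Molm-14 and 6.58% and 35.4% in OCI-AML3. PBX4, a paralog of PBX3, rose at 2 h from 3.21 to 6.61 CPM (1.04 ± 0.23, adjusted p = 0.000237), and TGIF1, a TALE repressor, rose at 24 h from 9.78 to 25.2 CPM (1.37 ± 0.07, adjusted p = 1.57e-17). PBX2 was at 119 CPM in Molm-14 DMSO and 152 CPM at 24 h, a change under 2-fold. Of 22 measured regulators of the HOX loci, such as menin, DOT1L and Polycomb subunits, 0 were called at 2 h in either line by limma at the 2-fold limit (17 had an unadjusted p below 0.05 in Molm-14 and 18 in OCI-AML3). At 24 h 0 of them were called in Molm-14, with 19 at an unadjusted p below 0.05. These calls compare with the same shares of all genes as above. Even at an adjusted p below 0.05 alone, 59.5% of all genes passed in Molm-14 at 2 h. That share was 62.2% in OCI-AML3 at 2 h and 76.3% in Molm-14 at 24 h. EZH2, the Polycomb methyltransferase, was the 1 called in OCI-AML3 at 24 h, beside 35.4% of all genes, and fell from 111 to 45.1 CPM (adjusted p = 2.75e-20).

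RUNX1 passed the 2-fold limit in no comparison with DMSO, whereas both of its paralogs and its partner subunit did in at least 1 line. RUNX2 rose at 24 h in both lines (42.4 to 102 CPM in Molm-14 and 150.1 to 370.5 CPM in OCI-AML3, adjusted p = 1.62e-20 and 2.1e-20). RUNX3 rose in Molm-14 at both times (12.5 CPM in DMSO, then 52.6 and 62.6 CPM), and was at 48.1, 39.4 and 27.9 CPM in the OCI-AML3 groups. CBFB, the partner subunit of all RUNX proteins, fell in OCI-AML3 at 24 h from 148 to 55.7 CPM (-1.41 ± 0.05, adjusted p = 8.25e-22). TLE3, a corepressor that RUNX proteins recruit, fell at 2 h in both lines and was back near DMSO at 24 h in Molm-14 (66.5 and 68.5 CPM).

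In the C/EBP and PU.1 family several paralogs passed the 2-fold limit against DMSO, which CEBPA and SPI1 did not in these comparisons. CEBPD fell at 2 h in both lines, from 28.3 to 7.70 CPM in Molm-14 and from 155 to 64.8 CPM in OCI-AML3, and stood at 32.8 and 245 CPM at 24 h. CEBPB fell in Molm-14 (-1.03 ± 0.07, adjusted p = 8.59e-15) and rose in OCI-AML3 (1.48 ± 0.07, adjusted p = 4.34e-18) at 24 h. SPIB, a close relative of PU.1, rose from 31.5 to 314 CPM at 2 h in Molm-14 and was at 40.1 CPM at 24 h. It also rose at 2 h in OCI-AML3, from 3.22 to 7.09 CPM (1.13 ± 0.09, adjusted p = 4.86e-12). TRIB3, a pseudokinase related to the C/EBP-degrading TRIB2, fell at 24 h in both lines (-2.19 ± 0.06 and -1.94 ± 0.07, adjusted p = 3.46e-23 and 1.25e-21). TRIB2 itself had 0 reads in Molm-14 and 2285 in OCI-AML3 in DMSO. It fell in OCI-AML3 at 2 h (-1.26 ± 0.16, adjusted p = 4.71e-08) and was not called there at 24 h.

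**Figure D5:**
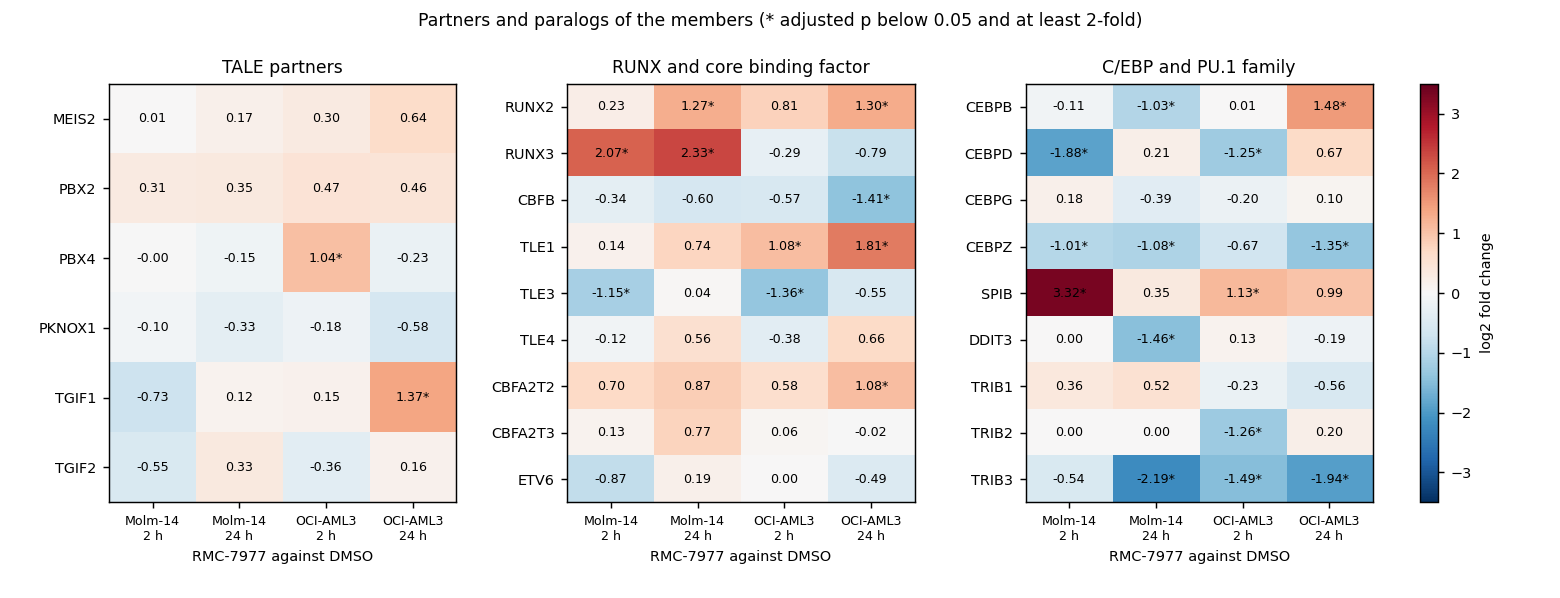
Log2 fold change against DMSO (limma) of the measured TALE, RUNX and C/EBP relatives of the members in 4 comparisons; red is higher and blue lower than DMSO, and stars mark calls. CEBPD is blue at 2 h in both lines, RUNX2 is red at 24 h in both, and CEBPB has opposite colours in the lines at 24 h.

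Textbook targets of the members were counted as lists, and these lists share genes. CSF1R, ITGAM, MPO and FCGR1A, for example, are listed both as PU.1 and C/EBP alpha targets and as myeloid markers. MPO is also in the MYB list, and MYC is in the MYB list and in the HOX and MEIS1 list. The counts are therefore not independent of each other or of the marker counts above. Of 19 measured PU.1 and C/EBP alpha targets, 8 rose and 2 fell in Molm-14 at 24 h and 7 rose and 4 fell in OCI-AML3, beside 17.9% and 35.4% of all genes called. The list medians were 0.78 and 0.57, against 0.00 and 0.01 for all genes. CSF1R, the macrophage growth factor receptor, rose from 7.08 to 88.1 CPM in Molm-14 (3.64 ± 0.06, adjusted p = 1.21e-29) and from 13.2 to 173 CPM in OCI-AML3 (3.71 ± 0.06, adjusted p = 9.46e-30). NCF1, a subunit of the phagocyte oxidase that has near-identical pseudogenes, rose in Molm-14 from 31.0 to 226 CPM and fell in OCI-AML3 from 217 to 49.95 CPM. Of 14 measured MYB partners and targets, 3 fell in Molm-14 and 4 in OCI-AML3 at 24 h, and by limma 0 rose (4 and 5 were higher at an unadjusted p below 0.05), beside 17.9% and 35.4% of all genes called in either direction. MYBL2, a MYB paralog that is active in dividing cells, fell in both, from 294 to 126 CPM and from 267 to 19.9 CPM.

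Of 19 measured HOX and MEIS1 targets, 2 fell and 0 rose in Molm-14 at 2 h by limma (4 were higher at an unadjusted p below 0.05), beside 7.29% of all genes called. At 24 h in Molm-14 1 fell and 0 rose (17.9% of all genes; 8 were higher at an unadjusted p below 0.05). In OCI-AML3 1 rose and 5 fell at 2 h (6.58% of all genes), and 2 rose and 5 fell at 24 h, a share near the 35.4% of all genes. FLT3, the receptor gene that MEIS1 binds, rose in OCI-AML3 at both times (60.5 CPM in DMSO, then 132 and 170.2 CPM), and was at 332, 387 and 504 CPM in the Molm-14 groups. ANGPT1, a vascular growth factor, fell in Molm-14 at 24 h from 517 reads to 5 over 4 libraries each.

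For each member the genes most alike were those with the highest Pearson r over 23 libraries, after subtracting each line's DMSO mean, among 11652 genes with a group mean of at least 5 CPM. These values are descriptions, and the libraries share lines, drug and depth. RUNX1 was most like CEBPD (0.986), MYB like CDC42EP3 (0.985), PBX3 like ACP3 (0.979), SPI1 like ANXA11 (0.976) and HOXA10 like COA1 (0.957). HOXA9 was most like PRPF18 (0.947), MEIS1 like ZNF292 (0.942), CEBPA like TOLLIP (0.928) and HOXB3 like DHTKD1 (0.923). The highest value for HOXA7 was 0.675 with GABRA4, but the OCI-AML3 libraries held only 0 to 5 HOXA7 reads each, so counting noise limits its r and nothing can be read from this value.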

How the data were processed

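The submitters' processing notes name Trimmomatic 0.36, STAR 2.7.8a, RSEM 1.3.3, edgeR 3.24.3, limma 3.38.3 and MultiQC 1.28 with hg38 (GRCh38), in no stated order or setting. The deposited values were log2 CPM for 13033 genes in 23 libraries, with a shared lowest value of -3.26 that stands for a prior, so changes of low genes are understated. Depth (15.3 to 22.4 M reads) was recovered from the spacing of low values, and 75.4% to 83.0% of values worth 20 reads or fewer were whole to within 0.05.

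One limma 3.58.1 fit (R 4.3.3) held 6 group means, with trend and robust moderation, and was tested on simulated data. The 9 contrasts were adjusted over 13033 genes. Read ratios carry exact intervals for counting error only. Coordinates are from GENCODE 29 (GRCh38). The members and lists were chosen with earlier results of these data known. A few listed genes are not reported here and were left out of the lists. Named genes were all members, up to 4 called genes per list, direction and comparison, direct partners or paralogs of a member, and the genes most alike. Alternatives were a pseudocount, a filter, 2 rescalings, limma without its options, voom on recovered reads, only the groups compared, a replicate block and leaving out each library. Replicate pairs differed by 1.54 to 5.14 times counting noise, so none was counted as a duplicate.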

Additional observations from a re-analysis of the deposited data

Results flagged for a closer look

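In 4 of 50 sets of 4 libraries (each set 1 member in 1 group) 1 library was flagged by Dixon's test, where chance gives about 1 in 20. These were the second Molm-14 DMSO library for HOXA10 (154 CPM), HOXB3 (0.495 CPM) and MEIS1 (52.0 CPM), and the second OCI-AML3 DMSO library for PBX3 (14.7 CPM). Flags on the same library are not independent. A flag can also come with a small gap where the other libraries lie close together, as for HOXA10 (151.4 to 151.8 CPM).

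The response differed between the lines at an adjusted p below 0.05 (limma, OCI-AML3 minus Molm-14, log2) for 6 members at 2 h: HOXA9 (0.60), HOXA10 (0.45), MEIS1 (0.46), PBX3 (0.34), MYB (0.61) and RUNX1 (0.19). At 24 h these were HOXA9 (0.80), HOXA10 (0.76), HOXB3 (-0.92), PBX3 (0.58), MYB (-0.13) and CEBPA (0.25). None reached 2-fold.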

How the results depend on the processing

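Under the alternatives 1543 member values kept their direction and their call (adjusted p below 0.05 and at least 2-fold), 14 reversed, 9 gained a call and 4 lost it. An adjusted p that crossed 0.05 without a change of call was not counted. One such case was HOXA7 in Molm-14 at 2 h (limma adjusted p = 0.499, then 0.00288 with only the groups compared). With a pseudocount of 1 CPM the members called went from 1 to 0 in Molm-14 at 24 h against DMSO and against 2 h (HOXB3 0.66 and 0.58), MEIS1 between the lines was -0.99, and the HOXB3 difference at 24 h reversed to 0.0574. With CPM rescaled or centred, PBX3 at 24 h against 2 h in OCI-AML3 passed 2-fold (1.06 and 1.04, so 1 member called in place of 0), CEBPA in Molm-14 at 2 h turned to 0.0213 and 0.0269, HOXA10 in OCI-AML3 at 24 h against 2 h to 0.0464 and 0.0237, and with centring the SPI1 difference at 24 h to 0.0226. With voom the HOXB3 difference at 24 h was -1.17, giving 1 call. The causes were not tested.

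Leaving out 1 library gave 0 to 1 calls for the difference at 24 h and for 24 h against 2 h in OCI-AML3, 1 to 2 for OCI-AML3 at 24 h against DMSO, and 5 to 6 between the lines. Without the first OCI-AML3 24 h library HOXA7 was called there (1.02, adjusted p = 0.0145 by limma) and in the difference at 24 h (1.282). HOXB3 was called in that difference without the second Molm-14 DMSO (-1.05) or 24 h library (-1.07), and PBX3 between the OCI-AML3 times without the first 2 h (1.03) or 24 h library (1.01). CEBPA in Molm-14 at 2 h ran from -0.0646 to 0.0316, and HOXA7 in OCI-AML3 at 24 h against 2 h from -0.225 to 0.707, so neither direction held.

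Replicate numbers did not pair libraries (median r of deviations 0.006 over 55 same-numbered pairs, 4 above 0.1). The replicate block changed no count of member calls, and over all genes moved the count of calls most in the difference at 24 h, from 2325 to 2304. Depth limits HOXA7 in OCI-AML3 and HOXB3 in Molm-14.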

Other observations

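Of 40 other myeloid and blood transcription factors 32 were measured. In Molm-14 1 rose and 3 fell at 2 h, and 5 rose and 1 fell at 24 h (7.29% and 17.9% of all genes were called). In OCI-AML3 3 rose and 2 fell at 2 h, and 5 rose and 2 fell at 24 h (6.58% and 35.4% of all genes). NFE2, known from megakaryocytes and erythroid cells, rose in every drug group. Its Molm-14 levels were 58.0 CPM in DMSO, 229 CPM at 2 h and 159 CPM at 24 h, and those of OCI-AML3 were 8.74, 30.7 and 95.2 CPM. EGR1, an immediate early gene, fell in every drug group, with 53.7 CPM in DMSO, 1.32 CPM at 2 h and 1.07 CPM at 24 h for Molm-14 and 41.2, 3.37 and 1.87 CPM for OCI-AML3. KLF4, a monocyte factor, rose in OCI-AML3 at 24 h (18.4 to 83.6 CPM) and was at 7.21 and 7.37 CPM in Molm-14 in DMSO and at 24 h.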
